A study of Mus musculus with 6 samples.

Results

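The miR-30 family is a group of mature microRNAs that share 1 seed, the stretch near the 5′ end that pairs with target messenger RNAs. Its probes were chosen by name, as every mouse probe for miR-30a, miR-30b, miR-30c, miR-30d or miR-30e with any arm ending. The rule found 5 of the 334 mouse microRNA probes listed for the arrays, namely miR-30a-5p, miR-30b, miR-30c, miR-30d and miR-30e. All 5 probes are for guide strands, the strand of the hairpin that is loaded into Argonaute. With 0 passenger-strand probes of the family among the listed features, guide and passenger strands were not compared.

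The arrays measured microRNAs in mouse embryoid bodies, clumps of embryonic stem cells that have begun to differentiate, collected on day 7 after removal of feeder cells on gelatin. All groups shared the strain 129S7/SvEv Brd-Hprt b-m2 and carried human BRCA1, a DNA repair and tumour suppressor gene. WT carried its wild-type form, MI the missense change M1652I and RQ the missense change R1699Q. Each of the 3 groups had 2 arrays, labelled as biological replicates, so 6 in all. The number of stem cell clones behind a group, and the state of the mouse's own Brca1, are not given in the sources used here. Nothing says that replicates came from separate cultures, so the p-values cover only the spread among these samples, and that spread may be technical. The comparison asks whether either BRCA1 change goes with a different microRNA level.

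MicroRNAs are cut from hairpin precursors, and the seed of the loaded strand selects messenger RNAs for repression. The miR-30 family is known from many differentiated tissues, among them kidney, heart, skeletal muscle and fat. Described targets include Snai1, a transcription factor of the epithelial to mesenchymal transition, and Ccn2, a matrix protein gene. Its members come from hairpins that lie in pairs in the mouse genome, which RefSeq GRCm38.p6 lists as Mir30a with Mir30c-2, Mir30b with Mir30d, and Mir30c-1 with Mir30e, the last pair within Nfyc, a transcription factor subunit gene.

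The mature sequences of the members with an entry in the RefSeq table (GRCm38.p6, 3 of 5 members matched) are shown because some members are nearly alike. Each is written 5′ to 3′, and the capitals mark the seed, bases 2 to 8.
miR-30a-5p: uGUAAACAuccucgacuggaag
miR-30e: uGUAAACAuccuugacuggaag
miR-30c: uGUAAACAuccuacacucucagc
The seed was the same in all 3. Counted from base 1 at the 5′ end, miR-30a-5p and miR-30e differ by C13U. miR-30a-5p lies in Mir30a at chr1:23272274-23272295 on the plus strand, and miR-30e in Mir30e at chr4:120772660-120772681 on the minus strand. miR-30c has the same mature sequence from 2 hairpins, Mir30c-2 at chr1:23291714-23291736 (plus strand) and Mir30c-1 at chr4:120769584-120769606 (minus strand), and its probe cannot tell them apart.

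The array probes are 60 bases long. They hold the complement of the microRNA, counted from its base 1, for 20 bases in the miR-30e probe and 22 or 23 in the others. For miR-30b and miR-30d base 1 was assumed, as no mature sequence was there to match. Over the compared target bases, the probes of miR-30a-5p and miR-30d differ at 1 base, those of miR-30a-5p and miR-30e at 1, and those of miR-30d and miR-30e at 2. The probes of miR-30b and miR-30c differ from each other at 4 bases, and from the other three members' probes at 5 to 8. Values of miR-30a-5p, miR-30d and miR-30e are thus uncertain to the extent that 1 RNA binds another's probe, which was not tested. The seed's complement in DNA letters, TGTTTAC, was in 5 of the 334 probes (1.5%), 0 of them outside the family, and the seed itself, GTAAACA, in 0.

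Each array had 2 colours, with Cy3 for the group's own RNA and Cy5 for reference RNA labelled as wild-type embryoid bodies, without a dye swap. The ratio below is log2 of Cy3 over Cy5 after loess, which subtracts a curve of ratio against brightness drawn through each array's spots. It is averaged over the 4 spots of a probe less outliers. Groups could still differ at a given brightness after loess, as given below. Of the 334 probes, 294 were bright enough to test, all 5 members among them. Replicate arrays correlated at r = 0.987 (WT), 0.993 (MI) and 0.994 (RQ) across these microRNAs, which are not independent of one another. Stem cell microRNAs, with 10 of the 15 listed markers on the array, were well above background in Cy3 on both WT arrays for 10 of 10 and in Cy5 for 2 of 10. The Cy5 reference thus did not look like the Cy3 RNA of its own label, so ratios are compared between groups and not read as distances from wild type. The RQ arrays had a higher Cy3 signal on negative control spots, 93.0 and 102.8 against 43.8 to 59.4 on the other 4 arrays. Slide positions were read from the numbers that end the names of the deposited scans, and the sample labels do not give them. By these numbers both WT arrays lay in 1 row and all MI and RQ arrays in the other. Row and BRCA1 change thus cannot be told apart in comparisons with WT. By the same numbers the RQ arrays lay in columns 3 and 4, and the WT and MI arrays in columns 1 and 2. Column and R1699Q thus cannot be told apart in RQ against WT or RQ against MI.

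Of the family, miR-30c passed the test in RQ against WT, with a lower ratio under loess. The difference was 0.92 ± 0.16 on the log2 scale (SE, n = 2 arrays per group). Before loess, its Cy5 signal over its Cy3 signal was 5.09 and 6.95 in WT and 3.83 and 4.38 in RQ. Its Cy3 over Cy5 was thus higher on both RQ arrays than on either WT array. The same held for miR-30a-5p, miR-30d and miR-30e, and the share of all tested microRNAs was not counted. Mean signals in RQ over WT were 1.07 in Cy3 and 0.747 in Cy5 for miR-30c. The medians of all tested microRNAs were 1.35 and 0.834. The other members did not pass the test in RQ, and 0 of 5 passed in MI against WT or in RQ against MI. The change of miR-30c was not called under median centring, with Cy3 alone or with the scanner software's processed signals. It was at 0.23 under median centring. The other microRNAs as bright as miR-30c moved by a similar amount in the same comparison under loess, as given below.

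All 120 member spots were well above background in both dyes, 0 were saturated, and 5 were marked as outliers by the scanner software and left out. In Cy3, the signal over local background of miR-30c was 680.5 and 469 in WT, 488 and 558 in MI, and 634 and 594 in RQ. Both RQ values of miR-30c lay between its WT values, and the MI range overlapped that of WT. The Cy3 signal of miR-30b was 394 and 244.5 in WT, 217 and 257.5 in MI, and 321 and 313 in RQ. The replicates of miR-30b stood furthest apart in WT, where the first array was above every other and the second within the range of MI.

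The Cy3 signal of miR-30a-5p was 275 and 244 in WT, 226 and 264 in MI, and 296 and 270.0 in RQ. That of miR-30d was 278 and 245.5 in WT, 220.0 and 256 in MI, and 294 and 285 in RQ. That of miR-30e was 102 and 108 in WT, 93.8 and 107.75 in MI, and 126 and 135 in RQ. For these 3 near-identical probes RQ had the highest mean and MI the lowest, and RQ was above both WT arrays for miR-30d and miR-30e. These orders did not hold once the negative controls of each array were taken off. Over the 5 members, 2 had a higher Cy3 signal on both RQ arrays than on either WT array, where 63.3% of the 294 tested microRNAs did. Against MI, Cy3 was higher on both RQ arrays for 5 of 5, where 72.1% of tested microRNAs were. The ratio of mean Cy3 signals, RQ over WT, ranged from 0.993 for miR-30b to 1.24 for miR-30e, below the median of tested microRNAs at 1.35.

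With the mean of each array's negative control spots taken off, RQ had the highest mean Cy3 signal for 0 of 5 members, where it had been highest for all but miR-30b. The shares of all tested microRNAs on this scale were not counted, so these orders have no background to be read against. The Cy3 signal of miR-30e became 42.9 and 64.2 in WT, 49.96 and 48.4 in MI, and 33.2 and 32.2 in RQ, so RQ went from above both WT arrays to below them. For miR-30d it became 219 and 202 in WT, 176 and 197 in MI, and 201 and 182 in RQ, with both RQ arrays below both WT arrays. For both probes the nearest WT and RQ arrays were closer than the SD of their spots. That SD was 12.1 and 13.0 for miR-30e, and 19.0 and 9.84 for miR-30d. For miR-30a-5p the means became 208 in WT, 193 in MI and 185 in RQ, so RQ went from highest to lowest. For miR-30b they became 267 in WT, 186 in MI and 219 in RQ. For miR-30c they became 523 in WT, 471 in MI and 516 in RQ, and its RQ arrays, at 541 and 491, stayed between its WT arrays, at 621 and 425.

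In Cy5 the family was lower on the RQ arrays than on the WT arrays, although every array was hybridised with reference RNA of the same label. The Cy5 signal of miR-30c was 3465 and 3260 on the WT arrays, 3027 and 2959 on the MI arrays, and 2425 and 2601 on the RQ arrays. That of miR-30b was 1870 and 1786 on the WT arrays, 1565 and 1650 on the MI arrays, and 1482 and 1487 on the RQ arrays. The 3 groups of arrays did not overlap for either probe, with WT highest and RQ lowest. miR-30a-5p was at 1635 and 1665 on the WT arrays, 1406 and 1420 on the MI arrays, and 1275 and 1227 on the RQ arrays. miR-30d was at 1486.5 and 1437, then 1173 and 1299, then 1143.5 and 1107, in the same order of groups. For miR-30e these values were 672 and 662.5, 567 and 606, and 529 and 536.

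The same order held for 5 of 5 members. Cy5 was lower on both RQ arrays than on either WT array for 54.4% of tested microRNAs, on both MI arrays than on either WT array for 41.8%, and on both RQ arrays than on either MI array for 50.3%. The ratio of mean Cy5 signals, RQ over WT, was 0.747 for miR-30c and 0.758 to 0.812 for the others, against a median of 0.834 over the tested microRNAs. MI over WT, it was 0.846 to 0.890 over the members, against a median of 0.917. The reference signal of the family thus moved with the groups, and its part in the ratios was not tested.

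**Figure D1:**
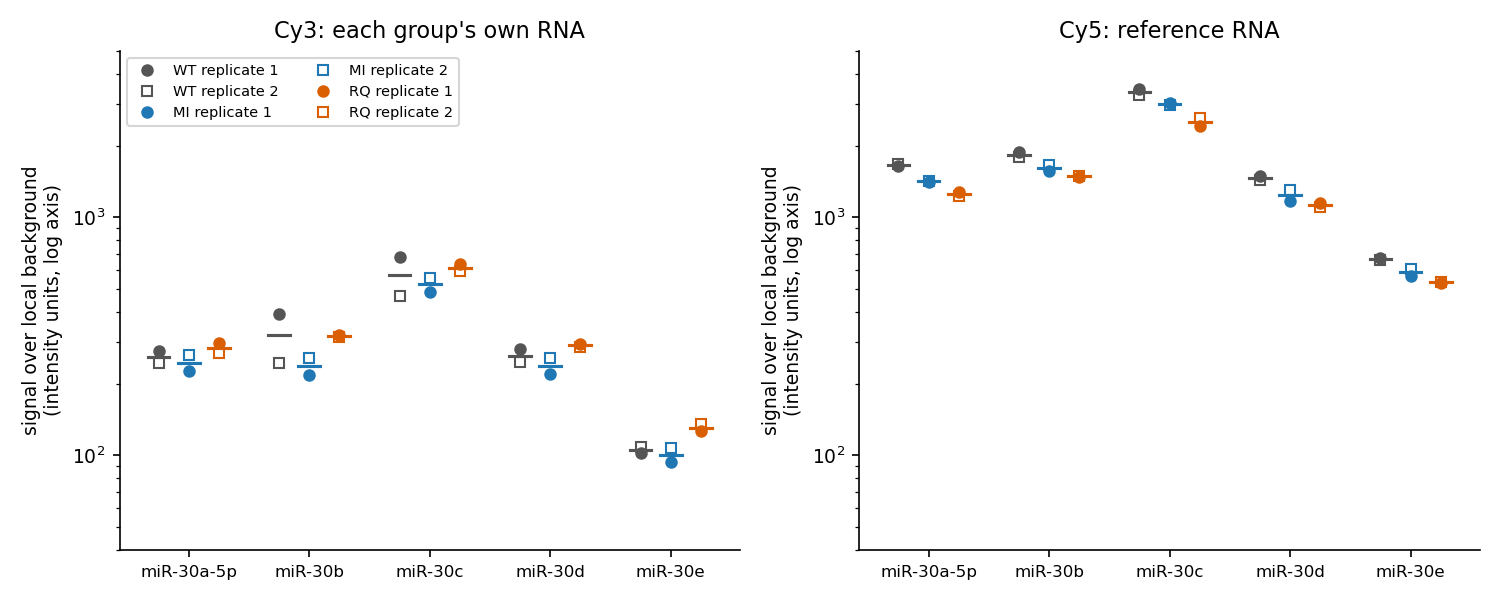
Signal over local background (intensity units, log axis) of each miR-30 guide probe on the 6 arrays, in Cy3 (left, each group's own RNA) and Cy5 (right, reference RNA); filled circles are replicate 1, open squares replicate 2 and lines the mean of 2. Each probe is to be read against itself only. The Cy5 values step down from WT to MI to RQ for all 5 probes, for miR-30c from 3465 and 3260 in WT to 2425 and 2601 in RQ, while the Cy3 values of miR-30c in RQ lie between those of WT.

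After loess, miR-30c had a log2 ratio of -1.31 and -1.04 in WT, -1.65 and -1.34 in MI, and -2.17 and -2.03 in RQ. Both RQ arrays were below the other 4, and both MI arrays were below both WT arrays by a small gap. The means were -1.18 ± 0.19 (SD, n = 2) in WT, -1.50 ± 0.22 in MI and -2.10 ± 0.10 in RQ. In RQ against WT the change was -0.92 ± 0.16 (SE), with a 95% interval from -1.31 to -0.53 and an adjusted p of 0.0120 (limma, Benjamini-Hochberg over the 294 microRNAs). Without the first RQ array it was -0.85 and not called, with an adjusted p of 0.0919 (limma). Over all other settings the adjusted p ran from 0.00690 to 0.261.

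miR-30b, whose probe is the most like that of miR-30c, had a log2 ratio of -1.69 and -2.09 in WT, -1.93 and -2.15 in MI, and -2.24 and -2.06 in RQ. Its 3 groups overlapped. The change in RQ against WT was -0.26 ± 0.17 (SE), with an adjusted p of 0.336 (limma) and a 95% interval from -0.68 to 0.17. Under a smoother loess curve (span 0.7 in place of 0.3, chosen after seeing the data) miR-30b was called too, at -0.62 with an adjusted p of 0.0110, and miR-30c was at -0.60 with an adjusted p of 0.0121 (limma).

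miR-30a-5p had a log2 ratio of -2.21 and -2.05 in WT, -1.76 and -1.95 in MI, and -2.10 and -2.10 in RQ. miR-30d was at -2.11 and -1.93 in WT, -1.63 and -1.91 in MI, and -1.95 and -1.91 in RQ. miR-30e was at -2.94 and -2.57 in WT, -2.32 and -2.54 in MI, and -2.71 and -2.72 in RQ. In these 3 probes MI was highest and the RQ arrays lay within the range of WT, or for miR-30d overlapped it. Their changes in RQ against WT were 0.03 ± 0.12, 0.09 ± 0.14 and 0.04 ± 0.16 (SE), with adjusted p of 0.881, 0.646 and 0.881 (limma). The 95% intervals reached from -0.27 to 0.33 for miR-30a-5p, from -0.25 to 0.44 for miR-30d and from -0.35 to 0.42 for miR-30e, so changes of that size could not be told from 0.

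**Figure D2:**
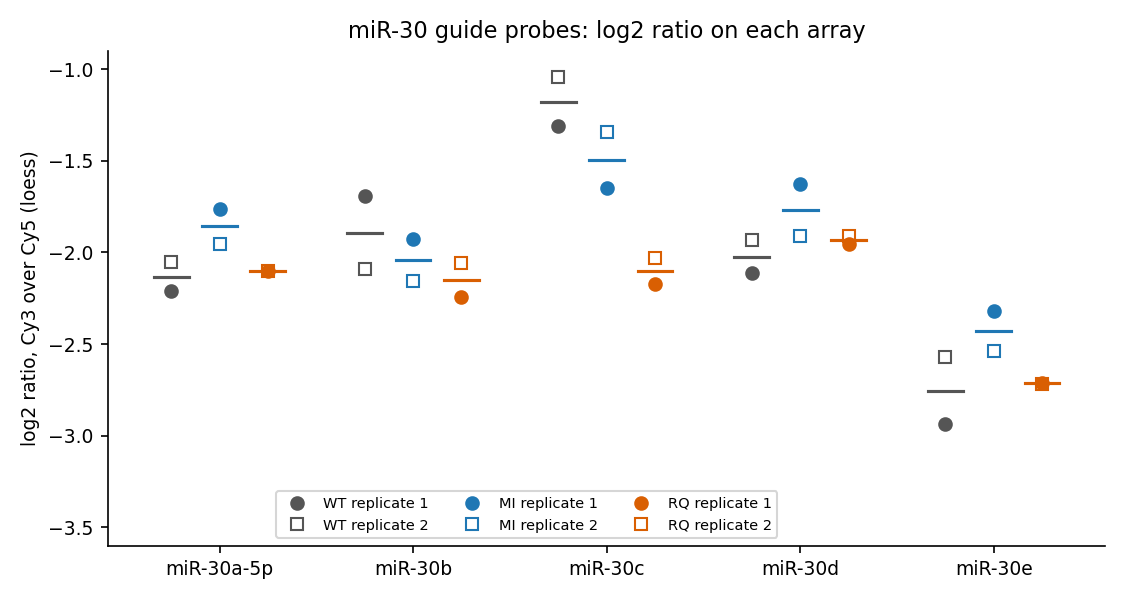
Log2 ratio of Cy3 over Cy5 after loess for each miR-30 guide probe on each array; filled circles are replicate 1, open squares replicate 2 and lines the mean of 2. The RQ arrays of miR-30c (-2.17 and -2.03) lie below all its WT and MI arrays, and the groups of miR-30b overlap.

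In RQ against WT, 1 of 5 members passed, in the lower direction, where 21.4% of the 294 tested microRNAs passed in either direction and 13.9% passed lower. The groups did not overlap for 1 of 5 members, against 62.6% of tested microRNAs. The median change of the members was 0.03, and that of all tested microRNAs was 0.03. A share of 1 in 5 is near the background of this comparison. The counts of all tested microRNAs were 22 higher and 41 lower under loess but 47 higher and 20 lower under median centring.

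In MI against WT, 0 of 5 members passed (limma, also 0 at an unadjusted p under 0.05), where 15.6% of tested microRNAs passed. The changes were 0.27 ± 0.12 for miR-30a-5p, -0.15 ± 0.17 for miR-30b, -0.32 ± 0.16 for miR-30c, 0.25 ± 0.14 for miR-30d and 0.33 ± 0.16 for miR-30e (SE). The adjusted p ranged from 0.167 for miR-30a-5p to 0.555 for miR-30b (limma). The groups did not overlap for 4 of 5 members, all but miR-30b, against 68.4% of tested microRNAs. The members' median change was 0.25 and that of all tested microRNAs 0.11. The values above 0 of miR-30a-5p, miR-30d and miR-30e were below 0 both with Cy3 alone and under the processed signals.

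In RQ against MI, 0 of 5 members passed, where 10.9% of tested microRNAs passed, and 1 of 5 had an unadjusted p under 0.05 (limma). That member was miR-30c, at -0.60 ± 0.16 (SE) with an adjusted p of 0.0763. It passed in the fit to only the arrays of these groups, with an adjusted p of 0.0493 (limma), which is also the fit without either WT array for this comparison, and with the replicate number as a block. The other members had changes from -0.29 for miR-30e to -0.11 for miR-30b, with adjusted p (limma) from 0.2497 to 0.738. The groups did not overlap for 3 of 5 members, against 65% of tested microRNAs. The median was -0.24 over the members and -0.10 over all tested microRNAs, and all 5 members were above 0 under median centring.

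Ordered by mean log2 ratio, miR-30c ran from WT to MI to RQ, and of these neighbours neither WT and MI nor MI and RQ differed by the test. miR-30b ran in the same order with no pair past the test. miR-30a-5p, miR-30d and miR-30e each ran from MI to RQ to WT, and no neighbours differed by the test. In ratio, replicate arrays had a pooled SD of 0.101 (miR-30a-5p) to 0.202 (miR-30b), and differed by up to 0.40 (miR-30b). The spots of a probe on 1 array had an SD of 0.0134 to 0.230.

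The call of miR-30c depended on the scaling. With each array's log2 ratios centred on their median instead, miR-30c was at -2.60 and -2.86 in WT, -2.72 and -2.60 in MI, and -2.40 and -2.61 in RQ. The second RQ array then lay between the WT arrays. The change was 0.23 ± 0.13 (SE), with an adjusted p of 0.261 (limma). The loess change minus the median-centred change was -1.15 for miR-30c and -0.24 to -0.06 for the other members.

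Probes of the same brightness moved with it. The average log2 intensity of miR-30c over both dyes was 10.37, and 38 other tested probes lay within 0.5 of it. Their median change in RQ against WT was -0.82 under loess, with 22 called lower and 0 higher, and 0.20 under median centring. Around miR-30a-5p, at an intensity of 9.35, the median of 44 other probes was 0.18 under loess, with 5 called lower and 4 higher, and 0.26 under median centring. Around miR-30e, at 8.21, it was 0.09 over 51 others under loess and 0.13 under median centring. The part of brightness in the change of miR-30c was not tested beyond these values.

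**Figure D3:**
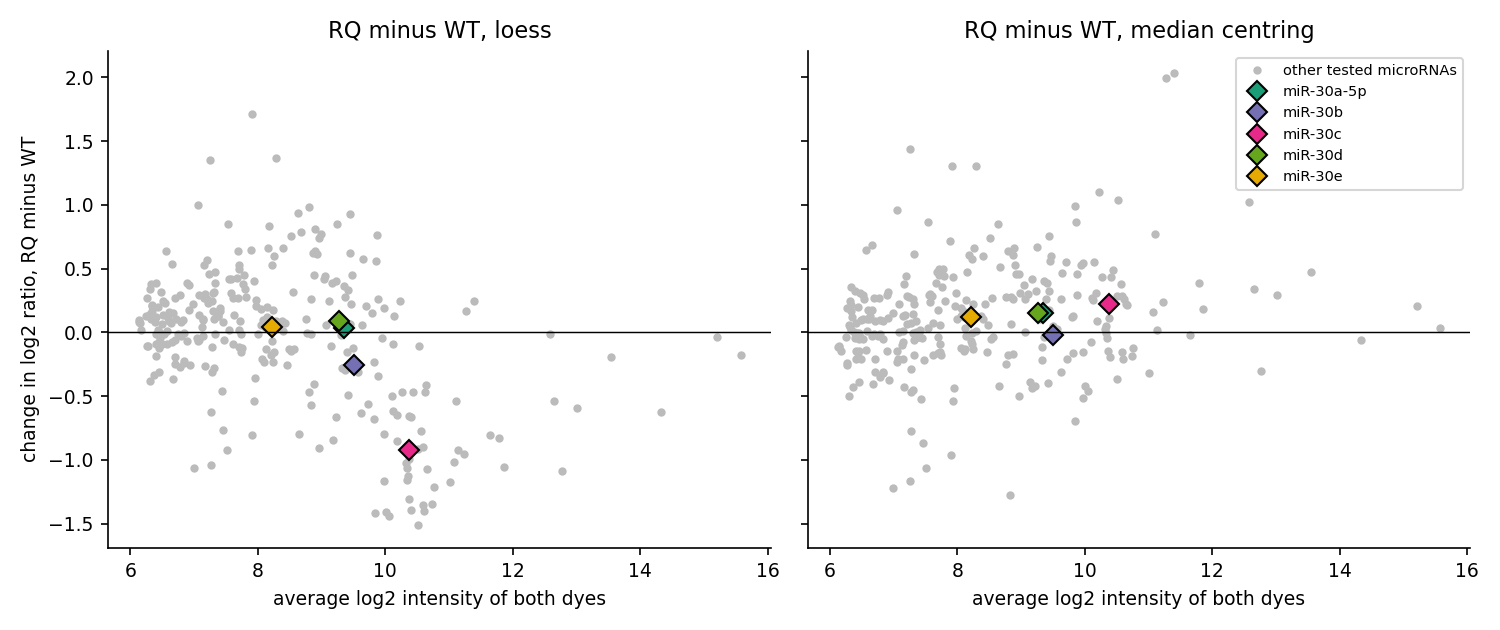
Change in log2 ratio, RQ minus WT, against the average log2 intensity of both dyes for the 294 tested microRNAs, after loess (left) and after median centring (right); diamonds are the miR-30 members and grey points the other tested microRNAs. miR-30c lies at -0.92 under loess amid other probes of its brightness, and at 0.23 under median centring.

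With Cy3 alone, scaled to each array's 75th percentile, all 5 members were below 0 in RQ against WT, from -0.46 for miR-30b to -0.32 for miR-30e, and 0 were called (limma). The median of all tested microRNAs was at -0.22 on that scale, and at -0.26 with the processed signals, where the members ran from -0.68 for miR-30b to -0.37 for miR-30c and 0 were called. Relative to those medians, the 5 members stayed below 0 on both scales. The loess curve drawn only through spots well above background in both dyes gave -1.09 ± 0.14 (SE) for miR-30c, with an adjusted p of 0.0131 (limma).

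**Figure D4:**
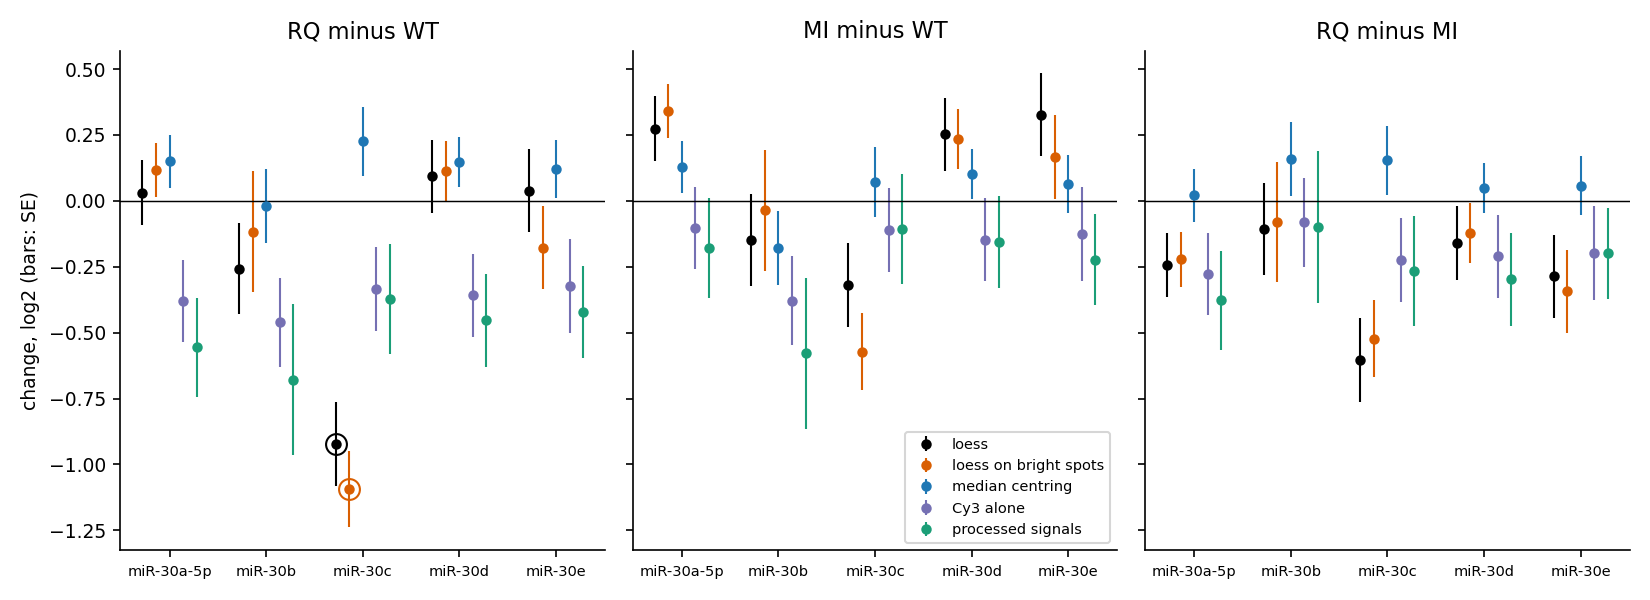
Change of each miR-30 member under 5 scalings (points, log2; bars are the SE of the limma fit) in the 3 comparisons; a ring marks an adjusted p under 0.05. In RQ minus WT, rings lie on miR-30c alone, at -0.92 under loess and -1.09 under loess on bright spots, and its point under median centring is at 0.23.

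miR-30a-5p, miR-30d and miR-30e, whose probes are nearly identical, were also the closest in pattern across the 6 arrays, while miR-30b and miR-30c, the next closest in probe sequence, were not. The root mean square difference between centred log2 ratios was 0.0467 for miR-30a-5p and miR-30d, 0.0638 for miR-30a-5p and miR-30e, and 0.0775 for miR-30d and miR-30e. miR-30b was 0.245 to 0.2996 from these 3. miR-30c was 0.375 to 0.450 from every other member. The distances describe 6 arrays whose probes share labelling and, for the first set, nearly all target bases. The probes differed in brightness, from an average log2 intensity of 8.21 for miR-30e to 10.37 for miR-30c. The part of brightness in these distances was not tested.

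Among the 289 tested microRNAs outside the family, those most like the mean miR-30 pattern were miR-484, miR-337, miR-669c and miR-203, an epithelial microRNA. Their root mean square differences over the 6 arrays were 0.0331, 0.0421, 0.0758 and 0.0758, against a median of 0.2501 over those outside the family. None of the 4 passed in any of the 3 comparisons, with changes in RQ against WT from -0.23 for miR-484 to -0.04 for miR-203. Of the members themselves, miR-30a-5p was nearest to the family mean, at 0.107, and miR-30c farthest, at 0.323.

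Values of other broadly expressed seed families are set beside these, and differences between families were not tested. Of the let-7 family with miR-98, known to rise as stem cells differentiate, 3 of 9 tested members passed lower and 0 higher in RQ against WT, where 13.9% of all tested microRNAs passed lower, with a median of 0.17 under loess and 0.29 under median centring. Their summed Cy3 signal was 2787 and 2945 in WT, 3087 and 3679 in MI, and 6090 and 6387 in RQ, with no overlap of RQ and the rest. Members differed, with a ratio of mean Cy3 signals, RQ over WT, from 0.92 for let-7f to 3.72 for let-7b. The summed Cy3 signal of the miR-30 members was 1311 to 1730 in WT, 1244 to 1443 in MI and 1597 to 1671 in RQ, where RQ lay within WT. With the negative controls taken off, it was 1091 to 1433 in WT, 1025 to 1146 in MI and 1083 to 1206 in RQ. RQ then overlapped WT and reached slightly below it. Of the miR-29 family, 1 of 3 passed lower, with a median of -0.81 under loess and -0.02 under median centring. Its summed Cy3 signal was 2325.5 to 2367 in WT, 1637 to 1842 in MI and 2115 to 2143 in RQ. With the negative controls taken off, it was 2147 to 2235 in WT and 1807 to 1864 in RQ.

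Summed Cy3 signals of markers of some other cell types were also higher in RQ. The median tested microRNA had 1.35 times its WT Cy3 signal there. Members of a list differed in their ratio of mean Cy3 signals, RQ over WT. Among muscle and heart markers it was 2.72 for miR-206 and 0.62 for miR-499. Among mesenchymal ones it was 2.35 for miR-214 and 0.86 for miR-21. The summed Cy3 signal of 5 muscle and heart microRNAs was 1363 to 1409 in WT, 2003 to 2867 in MI and 2542 to 3379 in RQ. That of 6 mesenchymal microRNAs was 2007 to 2906 in WT, 2603 to 3334 in MI and 4005 to 4383 in RQ, and that of 6 neural ones was 1097 to 1155 in WT, 1073 to 1239 in MI and 1716 to 1803 in RQ. MI overlapped WT for both. With the negative controls taken off each probe, the sums were 1112 to 1144 in WT and 2028 to 2913 in RQ for muscle and heart, 1743 to 2549.6 and 3388 to 3824 for mesenchymal, and 798 to 834 and 1099 to 1245 for neural microRNAs. On both WT arrays, 4 of 5, 6 of 6 and 5 of 6 of these were well above background in Cy3. Liver and endoderm microRNAs, of which 1 of 5 was above background there, summed to 460 to 488 in WT, 508 to 599 in MI and 857 to 899.75 in RQ, or 190 to 241 in WT and 343 to 435 in RQ with the negative controls taken off. With the negative controls taken off, blood microRNAs summed to 701 to 824 in WT and 669 to 770 in RQ. Epithelial ones summed to 1552 to 2338 in WT and 1498 to 1537 in RQ. The sum of 10 stem cell microRNAs, 52485 to 89035 in WT, held the range of 71155 to 74371 in RQ. In RQ against WT, 0 of these 10 passed higher and 3 lower, as did 0 and 2 of the 5 muscle and heart, 0 and 2 of the 6 mesenchymal, 1 and 0 of the 6 neural, 1 and 1 of 5 blood, 1 and 1 of 7 epithelial, and 0 and 0 of the 5 liver and endoderm microRNAs (limma), where 22 of all 294 tested microRNAs passed higher and 41 (13.9%) lower. The part of these cells in the miR-30 values was not tested, and in bulk RNA fewer cells of a type and less RNA per cell cannot be told apart.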

How the data were processed

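Small RNA in total RNA was measured on 6 custom Agilent arrays, read by Agilent's Feature Extraction software, version 9.5.1.1 in the file headers. The deposited files give mean and local background intensity per spot and dye on a linear scale, and the software's processed intensity, per the file headers. Per the file headers, a further column holds the log10 ratio of the processed values, Cy5 over Cy3. The deposited value table equalled minus that column, with a largest difference of 0, so it holds Cy3 over Cy5 and was used as the processed signals. The log10 ratio recomputed from the processed intensities differed from the column by up to 0.0779. The sources used here do not give the software's dye normalization.

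Intensities were corrected with normexp (offset 50) and loess (span 0.3) in limma 3.58.1 under R 4.3.3. Control and outlier spots had no weight in the curve, outlier spots were removed, and each probe's log2 ratio, Cy3 over Cy5, is the mean of its remaining spots. Tested probes had a share over 0.5 of spots well above background in one dye or the other on at least 2 arrays. The 3 groups were compared with lmFit and eBayes on all 6 arrays, with Benjamini-Hochberg adjustment over 294 probes and calls at an adjusted p under 0.05. The fit was tested on simulated log2 ratios with known changes and independent spread. That simulation left out background correction and loess, so it cannot bear on how calls depend on the scaling. The number of arrays limits the precision.

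Every member was named. The others named were the 4 microRNAs nearest the family mean by root mean square difference of centred ratios. The lists were stem cell, blood, muscle and heart, neural, liver and endoderm, epithelial and mesenchymal microRNAs, let-7 with miR-98, and miR-29. Members, lists and tests were chosen with earlier results of these data known. Other scalings, filters, offsets and outlier rules, fits without each array, and a replicate block were tried. Comparisons of guide and passenger strands were planned and not run, as the listed features hold 0 passenger probes.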

Additional observations from a re-analysis of the deposited data

How the results depend on the processing

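Of the settings tried, 2 were chosen after seeing the data: loess span 0.7, and outlier spots kept in the curve only. In RQ minus WT, the number of members called was 1, but 0 under median centring, Cy3 alone and processed signals, 2 under loess span 0.7, and 0 to 1 without single arrays. In RQ minus MI it was 0, but 1 in the fit to only the groups compared, 1 with the replicate block (miR-30c, adjusted p = 0.0359, limma) and 0 to 1 without single arrays; in MI minus WT it stayed at 0 throughout. Same-numbered arrays correlated at 0.18, 0.12 and 0.04 in their deviations from the group means, and the labels share only a number; the block changed no other call of a member. An arm without 1 array is assumed to vary like the other groups.

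Signs turned as follows. Under median centring miR-30c was at 0.23 (RQ minus WT) and 0.072 (MI minus WT), and in RQ minus MI miR-30a-5p was at 0.022, miR-30b at 0.16, miR-30c at 0.15, miR-30d at 0.047 and miR-30e at 0.057. With Cy3 alone miR-30a-5p, miR-30d and miR-30e were at -0.38, -0.36 and -0.32 (RQ minus WT) and -0.10, -0.15 and -0.13 (MI minus WT). With processed signals they were at -0.56, -0.45 and -0.42, and at -0.18, -0.16 and -0.22. In RQ minus WT, miR-30e was at -0.18 with loess on bright spots and -0.026 with offset 16. With outlier spots kept, miR-30a-5p, miR-30d and miR-30e were at -0.15, -0.10 and -0.15, and with them in the curve only at -0.15, -0.10 and -0.0019. Under loess span 0.7, miR-30a-5p and miR-30d were at -0.38 and -0.34 (RQ minus WT) and at -0.0092 and -0.014 (MI minus WT). Without single arrays, changes ran from -0.048 to 0.11 (miR-30a-5p, RQ minus WT), -0.14 to 0.22 (miR-30e, RQ minus WT), -0.35 to 0.051 (miR-30b, MI minus WT) and -0.22 to 0.0048 (miR-30b, RQ minus MI). Of the values whose sign turned, those of miR-30c were called at the lower sign in RQ minus WT and, in the fits named above, in RQ minus MI. The cause was not tested.

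Over all tested microRNAs, calls in RQ minus WT (22 higher, 41 lower) split as 10 and 33 with loess on bright spots, 24 and 59 with Cy3 alone, 18 and 38 with processed signals, and were 2 and 3 without the first RQ array, 15 and 25 without the second, 14 and 45 without the first WT array and 12 and 35 without either MI array. In MI minus WT (27 and 19) they were 17 and 21 with median centring, 14 and 21 with loess on bright spots, 19 and 28 with Cy3 alone, 9 and 23 with processed signals, 16 and 11 in the fit to only the groups compared, 14 and 14 without the first WT array, 41 and 22 without the second, 3 and 3 without the first MI array and 11 and 8 without the second MI array. Under loess span 0.7 they were 26 and 38. In RQ minus MI (9 and 23) they were 19 and 12, 4 and 6, 11 and 14, and 11 and 16 under the same 4 scalings, 5 and 9 with outlier spots kept and 5 and 12 with them in the curve only. Without either WT array they were 11 and 37, without the first RQ array 1 and 0, and without the second RQ array or either MI array 0 and 0.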
